A study of Rattus norvegicus with 5 samples.

Results

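Lysosomal genes were compared between the parietal cortex of kaolin-injected and saline-injected rats. The set holds 37 genes for soluble hydrolases, their helper proteins, membrane proteins and proton pump subunits. Members were found by the gene name printed for each non-control probe on the array, or by its current or older rat symbol. This gave 35 probes for 31 genes, of 41012 probes in all. Of these, 34 probes for 30 genes were bright enough to test, among 11967 tested genes. No probe matched Naglu, Ids, Idua, Sgsh, Npc1 or Atp6v1a by that rule, and their expression was not analysed here. The probe for Galns, an arylsulfatase of keratan sulfate breakdown, was not well above background in either channel on any array.

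Hydrocephalus, an enlargement of the fluid-filled ventricles, was induced with kaolin, a clay that obstructs the outflow of cerebrospinal fluid. The treated pups received kaolin and the controls saline on postnatal day 1, all stayed with the dam, and cortex was taken 21 days after injection, at an age of 22 days. Each of 5 Agilent 2-dye arrays carried 1 kaolin sample labelled with Cy3 and 1 saline sample labelled with Cy5, which gave 5 samples per group. The dyes were never exchanged, so dye and treatment cannot be told apart. The labels give no strain or sex and do not say whether a sample was 1 animal or a pool. The p-values therefore measure the spread between arrays.

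Lysosomes are acidic organelles in which hydrolases break down glycans, lipids, proteins and nucleic acids. Most of the hydrolases reach the organelle on mannose 6-phosphate receptors, and a proton pump, the V-ATPase, keeps the lumen acidic. In brain, phagocytic microglia are known for a high lysosomal load, and inherited loss of many of these enzymes causes a storage disease of neurons. In cortex as a whole tissue, more or fewer cells of a type and more or less RNA per cell cannot be told apart.

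The lysosomal genes lay mostly on the kaolin side, by amounts that differed between arrays. After loess normalization, which removes dye differences that depend on brightness, 30 of 30 tested members had a positive mean log2 ratio of kaolin over saline, against 56.5% of all tested genes. With median centring in place of loess, 22 of 30 were positive, against 32.8% of all tested genes. After loess the means ran from 0.0047 for Laptm4a to 0.75 for Cd63. The median over members was 0.29 ± 0.25 (SD, n = 5 arrays), and 0.09 with median centring. The other tested genes give the scale for these counts. A mean of at least 0.5, which is 1.41-fold or more, was reached by 9 of 30 members and by 4.2% of all tested genes. With median centring it was reached by 1 member, Gusb, and by 2.83% of all tested genes. A positive value on at least 4 of 5 arrays was found for 24 of 30 members and 34.1% of all tested genes. A positive value on 5 of 5 arrays was found for 5 members, Acp5, Arsb, Gm2a, Manba and Ppt1, and for 7.98% of all tested genes. With median centring 12 members were positive on at least 4 arrays (18.4% of all tested genes) and 1, Arsb, on 5 of 5 (3.93%).

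No member passed the test across all probes. In limma, with Benjamini-Hochberg adjustment over 29113 probes, 0 members and 0 probes (0%) had an adjusted p under 0.05, and the smallest adjusted p among members was 0.243. At an unadjusted p under 0.05, 13 of 30 members were higher in kaolin and 0 were lower, against 12.3% and 6.6% of all tested genes. With median centring 3 members (Acp5, Arsb and Gusb) were higher and 2, Laptm4a and Atp6v0d1, were lower at that threshold, against 5.85% and 25% of all tested genes. After loess the count of 13 was 20 without replicate 1, 17 without replicate 2, 5 without replicate 3, and 6 without replicate 4 or without replicate 5. The share of all tested genes at that threshold was not computed for these settings, so these counts have no scale beside them. Without replicate 2, Arsb, Gusb and Ppt1 passed the adjusted threshold (adjusted p from 0.0475 to 0.0488), where 2.46% of probes were called higher. Array weights were estimated from these same log ratios, at 0.81, 0.46, 1.38, 2.36 and 0.82 for replicates 1 to 5. With these weights in limma 10 members passed (adjusted p from 0.0425 to 0.0490), all of them higher in kaolin. Of all 29113 probes, 1547 (5.31%) were then called higher and 1930 lower, which is a share of probes and not of genes. Replicate 4 counted most and replicate 2 least, so these calls are no independent support.

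The members did not have like values on the 5 arrays. On replicates 1 and 2 the median over members was -0.0021 and 0.05, near the medians of all tested genes (0.02 and 0.0025), and 13 and 19 of 30 members were positive (52.9% and 50.5% of all genes). On replicates 3, 4 and 5 the member medians were 0.55, 0.43 and 0.43, and 29, 29 and 27 members were positive (55.6%, 54.9% and 54.7% of all genes). Replicate 3 gave the highest value for 14 members, replicate 5 for 9, replicate 4 for 5 and replicate 1 for 2. The lowest value came from replicate 1 or from replicate 2 for 14 members each, and from replicate 5 for the other two. Across the 30 members, log2 ratios correlated at 0.81 between replicates 3 and 4, 0.85 between 3 and 5 and 0.58 between 4 and 5, and between -0.22 and 0.11 in pairs that held replicate 1 or 2. These are descriptions across genes, which share arrays and are not independent. Over all tested probes, replicates 1 and 2 correlated at -0.37. Replicate 2 correlated with replicates 3, 4 and 5 at -0.17, -0.07 and -0.06. Replicate 1 correlated with the same arrays at 0.53, 0.48 and 0.12, unlike in the members. The all-probe values were 0.83 between replicates 3 and 4, 0.57 between 3 and 5 and 0.45 between 4 and 5. The labels state the same dyes for replicates 1 and 2, so the direction was kept. With the sign of replicate 2 turned, 30 of 30 members had a positive mean, with a median of 0.27. Member values on replicate 2 ran only from -0.52 to 0.36. The turn could thus move a mean little, and this count is no check of the direction. The turn did change the calls: 489 probes had an adjusted p under 0.05 in limma (245 higher, 244 lower), against 0 as labelled. Among members 0 passed, and their smallest adjusted p was 0.0528.

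**Figure D1:**
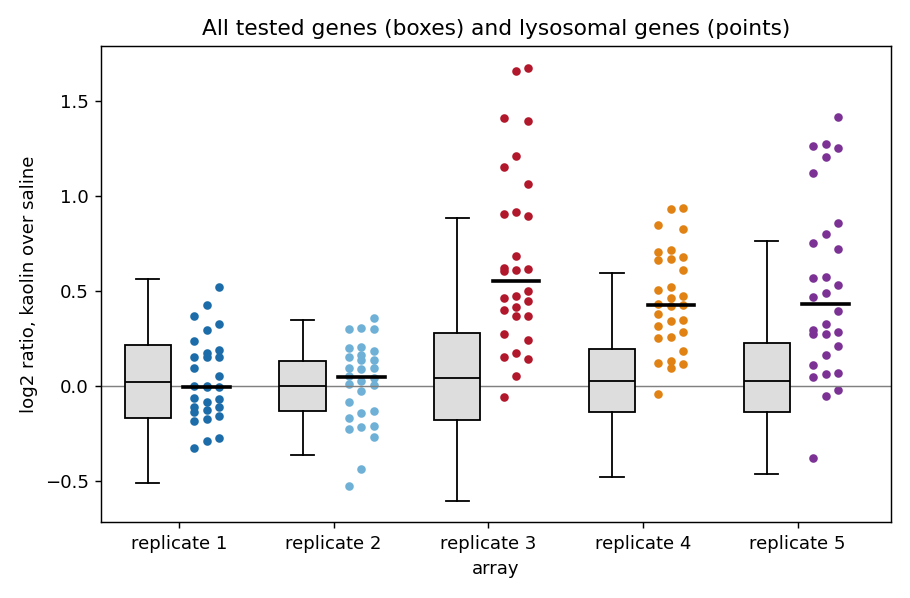
Log2 ratio of kaolin over saline on each of the 5 arrays. Grey boxes give the quartiles of the 11967 tested genes, with whiskers from percentile 5 to percentile 95, and points are the 30 lysosomal genes with their median as a black bar. The black bars sit at -0.0021 for replicate 1, 0.05 for replicate 2, 0.55 for replicate 3 and 0.43 for both of the others.

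The kaolin channel varied more between arrays than the saline channel. The mean normalized log2 intensity over the 30 members ran from 10.76 to 10.94 over the saline samples and from 10.89 to 11.49 over the kaolin samples. The kaolin values were 10.89, 10.96, 11.49, 11.26 and 11.28 on replicates 1 to 5, and the saline values 10.85, 10.94, 10.83, 10.80 and 10.76. Over all tested genes the same mean ran from 9.51 to 9.57 in kaolin and from 9.46 to 9.52 in saline. Kaolin samples 1 and 2 were thus close to the saline samples, with sample 2 (10.96) just above the highest of them (10.94). Kaolin samples 3, 4 and 5 lay further above all 5 saline samples.

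Markers of microglia and macrophages varied over the arrays together with the lysosomal genes. Of 10 markers on that list 9 were tested, all 9 were above background in both channels, and none is a member of the lysosomal set. Their mean intensity ran from 10.61 to 12.44 in kaolin and from 10.53 to 10.66 in saline, and their median log2 ratios on replicates 1 to 5 were -0.02, 0.08, 2.10, 1.30 and 1.57. The median for the lysosomal genes was thus smaller than that of the microglial markers on replicates 3, 4 and 5. P2ry12, a receptor of resting microglia, had a mean of 0.05 ± 0.38. With median centring 8 of the 9 microglial markers had positive means.

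Gfap, the intermediate filament protein of astrocytes, had a higher mean than any microglial marker, at 1.81 ± 1.23. Its log2 ratios were 0.39, 0.60, 2.81, 2.32 and 2.95, so it too was lowest on replicates 1 and 2. Ependymal markers had array medians of 0.34, -0.0050, 0.92, 1.11 and 0.95, with the same arrays low, and 0.66 ± 0.47 over arrays (3 of 3 positive). Over arrays, the median log2 ratio was -0.21 ± 0.23 for 6 neuronal markers (1 positive mean) and -0.15 ± 0.20 for 5 tested markers of cortical projection neurons (1 positive), which were above background in both channels on all 5 arrays. It was 0.17 ± 0.26 for 6 astrocyte markers (3 positive), -0.03 ± 0.37 for 5 oligodendrocyte markers (2 positive) and 0.02 ± 0.12 for 5 endothelial markers (4 positive). Choroid plexus markers stood at -0.997 ± 0.64 (0 of 4 positive) and erythroid markers at -0.07 ± 0.45 (1 of 3 positive). The choroid plexus means ran from -2.85 for Ttr to -0.01 for Folr1. Otx2, at -1.78, was above background on only 1 array in kaolin and on 4 in saline. Meningeal markers stood at 0.17 ± 0.53 (5 of 5 positive), with array medians of -0.31, -0.17, 0.87, -0.13 and 0.62. Of 6 lymphocyte and granulocyte markers only S100a8 (0.09) and S100a9 (-0.12) were tested. With median centring 2 of 5 meningeal and 1 of 5 endothelial markers had positive means. The part of these cell types in the lysosomal values was not tested.

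**Figure D2:**
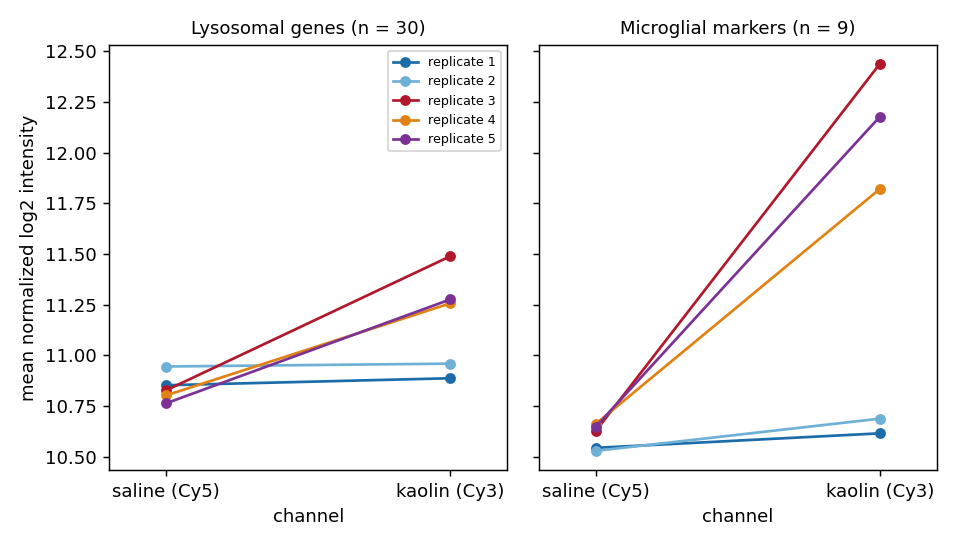
Mean normalized log2 intensity in the saline (Cy5) and kaolin (Cy3) channel of each array, over 30 lysosomal genes (left) and 9 microglial markers (right), with a line joining the samples that shared an array. In both panels the lines of replicates 1 and 2 are nearly flat and those of replicates 3, 4 and 5 climb, to between 11.26 and 11.49 for the lysosomal genes and between 11.82 and 12.44 for the microglial markers.

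Many lysosomal genes carry a short palindrome near their start, CACGTG, which transcription factors of the TFEB family bind, best when it is flanked as TCACGTG. Both were searched on both strands of RefSeq promoters (GRCr8), from 250 bases before to 50 bases after the start. Promoters were found for 31 of the 37 members. CACGTG was in those of 8 genes (25.8%), against 6.42% of 33469 promoters in the table and 9.19% of 9729 tested genes with a promoter. TCACGTG, which contains CACGTG, was in 7 (22.6%), against 3.20% of the promoters and 5.30% of those genes. The 6 promoters shown are those of the tested members with a match, with CACGTG in capitals. They show that Lamp1, with 5 matches, differs from the others, which have 1 or 2.
Lamp1 (chr16:83075014-83075313, minus strand): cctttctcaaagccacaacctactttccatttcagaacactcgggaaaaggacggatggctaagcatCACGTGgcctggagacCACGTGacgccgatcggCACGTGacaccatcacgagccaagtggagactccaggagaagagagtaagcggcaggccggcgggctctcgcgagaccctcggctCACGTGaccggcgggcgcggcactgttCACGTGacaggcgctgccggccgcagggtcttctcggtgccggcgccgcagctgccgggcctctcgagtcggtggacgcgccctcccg
Mcoln1 (chr12:6358008-6358307, plus strand): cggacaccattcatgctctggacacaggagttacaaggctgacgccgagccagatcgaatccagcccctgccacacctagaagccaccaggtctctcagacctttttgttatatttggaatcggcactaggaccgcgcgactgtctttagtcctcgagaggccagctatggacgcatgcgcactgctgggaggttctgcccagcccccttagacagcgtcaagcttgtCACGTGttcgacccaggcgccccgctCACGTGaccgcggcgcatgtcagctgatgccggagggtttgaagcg
Glb1 (chr8:122963468-122963767, plus strand): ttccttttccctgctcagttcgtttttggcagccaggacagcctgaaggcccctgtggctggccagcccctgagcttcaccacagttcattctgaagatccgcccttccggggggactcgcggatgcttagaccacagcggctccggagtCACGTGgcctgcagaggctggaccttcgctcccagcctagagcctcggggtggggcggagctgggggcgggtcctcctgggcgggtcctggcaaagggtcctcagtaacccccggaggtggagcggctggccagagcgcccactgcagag
Gaa (chr10:105028105-105028404, plus strand): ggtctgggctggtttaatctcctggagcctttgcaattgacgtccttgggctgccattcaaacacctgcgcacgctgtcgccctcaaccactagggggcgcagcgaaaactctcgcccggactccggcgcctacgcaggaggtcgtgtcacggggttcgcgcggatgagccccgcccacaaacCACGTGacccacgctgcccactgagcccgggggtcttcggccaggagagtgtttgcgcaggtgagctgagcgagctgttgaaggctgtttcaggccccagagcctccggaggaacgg
Atp6v0d1 (chr19:50357199-50357498, minus strand): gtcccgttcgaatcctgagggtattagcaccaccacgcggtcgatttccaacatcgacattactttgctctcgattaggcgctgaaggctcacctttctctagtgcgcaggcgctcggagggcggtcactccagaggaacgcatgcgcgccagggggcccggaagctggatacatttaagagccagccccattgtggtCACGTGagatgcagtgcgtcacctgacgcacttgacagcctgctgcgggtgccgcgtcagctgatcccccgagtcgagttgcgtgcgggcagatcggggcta
Cd63 (chr7:1921894-1922193, plus strand): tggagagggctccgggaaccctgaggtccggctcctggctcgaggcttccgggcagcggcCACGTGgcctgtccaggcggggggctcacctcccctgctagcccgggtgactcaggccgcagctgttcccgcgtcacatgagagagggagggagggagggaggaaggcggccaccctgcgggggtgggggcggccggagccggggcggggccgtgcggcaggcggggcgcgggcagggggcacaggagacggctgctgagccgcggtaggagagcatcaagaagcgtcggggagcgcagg
The 5 tested members with TCACGTG (all of the above but Cd63) had means from 0.024 to 0.40 with a median of 0.23, and none reached 0.5. The 19 tested members with a promoter and no TCACGTG had means from 0.0047 to 0.75 with a median of 0.35, and 8 reached 0.5. Arsa, Arsb (mean 0.52), Asah1, Hexa, Ppt1 and Psap had no promoter to search and are in neither group. The difference between the groups was not tested. With median centring the medians were -0.05 and 0.15, and 0 and 1 reached 0.5. A match is a description of these letters and not a site of binding. Tfeb itself had a mean log2 ratio of -0.04 ± 0.17 and Tfe3 of 0.10 ± 0.12. These are RNA values, and the activity of these factors was not measured.

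Among the enzymes that take apart glycosaminoglycans, both tested members had means above 0.5. Gusb, which removes glucuronic acid and is a standard marker enzyme of lysosomes, was read by a probe at chr12:27756354-27756413 of the rn4 genome build. Its log2 ratios were 0.30, -0.02, 1.21, 0.66 and 0.86 on replicates 1 to 5, a mean of 0.60 ± 0.48 (SD, n = 5; adjusted p = 0.243), or 1.52-fold. Replicates 3, 4 and 5 lay above replicates 1 and 2. This probe was spotted 10 times on each array, and the SD among its spots was 0.08 to 0.11, against 0.48 between arrays. The 10 spots of replicate 2 ran from -0.12 to 0.15, and those of replicate 3 from 1.08 to 1.31. Arsb, the sulfatase of dermatan sulfate, was at 0.42, 0.30, 0.91, 0.68 and 0.30 (chr2:24222213-24222272), a mean of 0.52 ± 0.27 (adjusted p = 0.243). It was positive on all 5 arrays, and lowest on replicates 2 and 5. For Naglu, a probe described on the array as similar to it, but named by a transcript ID, stood at 0.08 ± 0.15 and is not counted among the members.

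The glycosphingolipid enzymes and their activators had positive means in 8 of 8 genes after loess, none of them above 0.5. Glb1, the beta-galactosidase that acts on GM1 ganglioside, had log2 ratios of -0.06, 0.15, 0.69, 0.47 and 0.72 and the highest mean of the group, 0.40 ± 0.34 (adjusted p = 0.243; chr8:118848501-118851881). Its promoter holds a CACGTG as printed above. Hexa, the alpha subunit of the hexosaminidase that acts on GM2, stood at 0.34 ± 0.47 (0.19 without replicate 3) and Gm2a, its activator, at 0.14 ± 0.14. Asah1, the acid ceramidase, stood at 0.27 ± 0.30, Psap, the precursor of the saposin activators, at 0.21 ± 0.28, and Smpd1, the acid sphingomyelinase, at 0.18 ± 0.21. Arsa, the sulfatase of sulfatide, a myelin lipid, stood at 0.12 ± 0.08. Gla, the alpha-galactosidase, had the lowest mean of the group, 0.12 ± 0.28, from values of 0.37, -0.23, 0.05, 0.43 and -0.05 (chrX:122048124-122049420). Replicates 1 and 4 were its high arrays, an order not seen in Glb1, and its mean was 0.04 without replicate 4. With median centring the means of Psap, Smpd1 and Arsa were negative (-0.13, -0.12 and -0.02), and those of the other 5 stayed positive.

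Enzymes of glycoprotein and glycogen breakdown had 5 of 5 positive means after loess. Fuca1, the alpha-fucosidase, had the second highest mean of all members, 0.72 ± 0.66 (adjusted p = 0.243), or 1.65-fold. Its log2 ratios were 0.24, -0.13, 1.41, 0.83 and 1.26 (chr5:154720903-154720962). A second Fuca1 probe stood at 0.61 ± 0.58 and had the same sign as the first on all 5 arrays. Man2b1, the lysosomal alpha-mannosidase, stood at 0.35 ± 0.38, Neu1, the sialidase, at 0.22 ± 0.23, and Gaa, which degrades glycogen, at 0.14 ± 0.22. Manba, the beta-mannosidase, was the lowest of the group at 0.05, 0.09, 0.24, 0.12 and 0.11 (chr2:233073854-233073913), a mean of 0.12 ± 0.07, which was the smallest spread of any member. Gaa turned to -0.08 with median centring.

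The next pair of members handles lipid released in the lysosome. Npc2, a small soluble protein that binds cholesterol, was at 0.15, -0.21, 1.06, 0.46 and 1.25 (chr6:108794590-108798310), a mean of 0.55 ± 0.61 (adjusted p = 0.261). Lipa, the acid lipase that frees cholesterol from its esters, was at -0.11, 0.04, 0.60, 0.32 and 0.57 (chr1:238467200-238467259), a mean of 0.28 ± 0.32 (adjusted p = 0.279). In each, replicates 1 and 2 were the lowest and replicates 3 and 5 the highest.

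Among proteases, Lgmn, an asparagine-specific endopeptidase, had the largest value. Its log2 ratios were -0.14, -0.14, 1.39, 0.93 and 1.12 (chr6:126669400-126669708), a mean of 0.63 ± 0.73 (adjusted p = 0.262), and it was negative on replicates 1 and 2. Tpp1, the tripeptidyl peptidase, was at -0.33, 0.20, 0.62, 0.42 and 0.58 (chr1:163491544-163491780), a mean of 0.30 ± 0.39 (adjusted p = 0.307). Ppt1, the thioesterase that removes palmitate from proteins, stood at 0.31 ± 0.14 (adjusted p = 0.243) and was positive on 5 of 5 arrays. Both acid phosphatases had positive means. Acp5, the tartrate-resistant form known from osteoclasts and macrophages, was at 0.19, 0.16, 1.15, 0.85 and 0.75, a mean of 0.62 ± 0.43 (adjusted p = 0.243), and all 5 arrays were positive. Acp2, the form of most tissues, was at -0.0040, 0.31, 0.41, 0.67 and 0.39 (chr3:75567895-75567954), a mean of 0.36 ± 0.24 (adjusted p = 0.243).

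The membrane proteins held both the highest and the lowest mean of the set. Cd63, a tetraspanin of late endosomes and lysosomes, was at 0.18, -0.44, 1.68, 0.94 and 1.42 (chr7:2210440-2210499), a mean of 0.75 ± 0.88 (adjusted p = 0.264), or 1.69-fold, with the widest spread of any member. Laptm5, a lysosomal protein of blood and immune cells, was at -0.29, 0.19, 1.66, 0.72 and 1.27 (chr5:149797871-149797930), a mean of 0.71 ± 0.79 (adjusted p = 0.256). Laptm4a, its relative found in most cells, was at -0.08, -0.17, 0.15, -0.04 and 0.16 (chr6:32425609-32426072), a mean of 0.0047 ± 0.15 (adjusted p = 0.978). Replicates 3 and 5 gave the highest values in both genes, but Laptm4a stayed within 0.17 of 0 on every array. The difference between these genes was not tested.

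The major coat proteins of the lysosomal membrane differed in size. Lamp2 was at -0.11, 0.10, 0.90, 0.61 and 1.21 (chrX:6931712-6938320), a mean of 0.54 ± 0.55 (adjusted p = 0.246). Lamp1, whose promoter holds 5 copies of CACGTG, stood at 0.23 ± 0.31 (adjusted p = 0.330) and at -0.05 with median centring. Mcoln1, a calcium channel of the lysosome with 2 copies, stood at 0.27 ± 0.44 and had its lowest value on replicate 5, at -0.38. Scarb2, the receptor that carries glucocerebrosidase to the lysosome, stood at 0.03 ± 0.37 and at -0.13 with median centring. The single proton pump subunit among the tested members, Atp6v0d1, was at 0.15, -0.08, -0.06, 0.13 and -0.02 (chr19:35342854-35343006), a mean of 0.024 ± 0.11 (adjusted p = 0.864), and its median-centred mean was -0.24. It was positive on 2 of 5 arrays, as was Laptm4a.

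**Figure D3:**
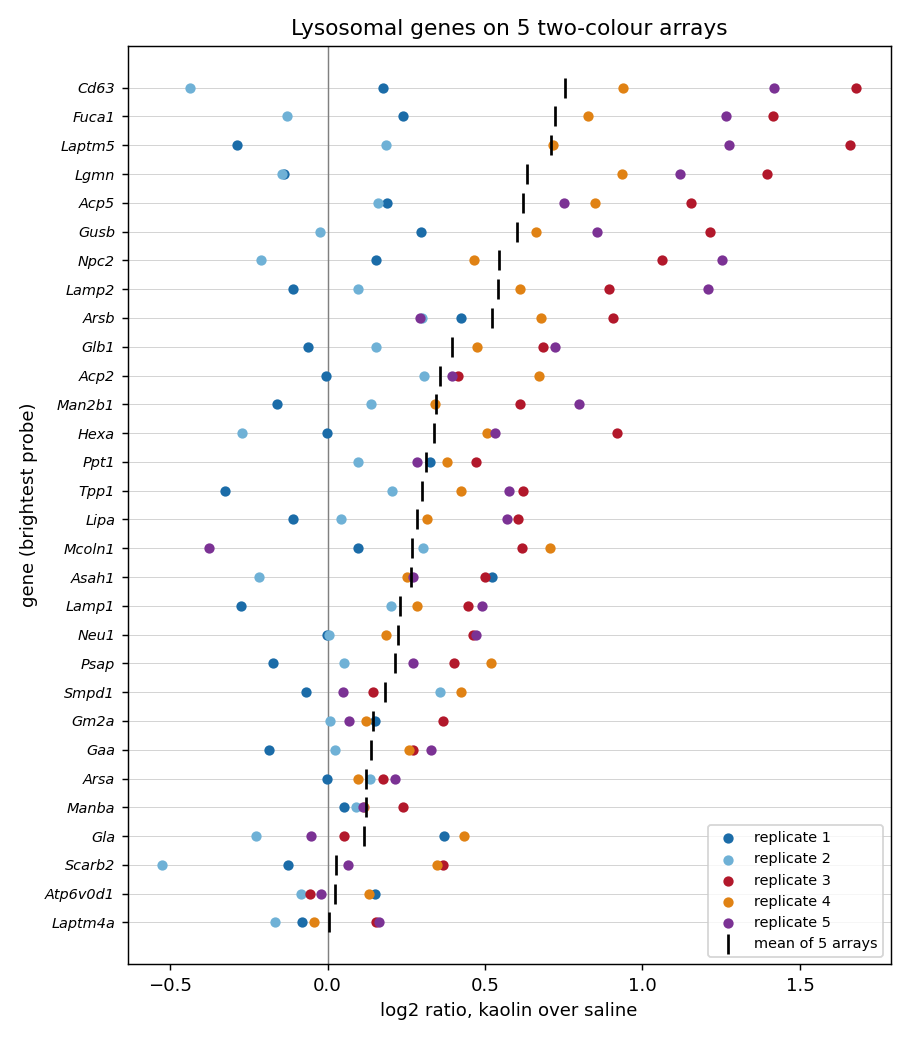
Log2 ratio of kaolin over saline for the 30 tested lysosomal genes, sorted by mean, with 1 point per array and a black mark for the mean of 5 arrays. From Cd63 at 0.75 down to Lamp2 at 0.54 the points of replicates 3, 4 and 5 lie to the right of those of replicates 1 and 2, while at the bottom Atp6v0d1 and Laptm4a have points on both sides of 0; the means of 8 genes are negative when median centring replaces loess.

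Where a gene had more than 1 tested probe, the probes gave the same sign of the mean. The largest gap between probes on an array was 0.30 for Fuca1, 0.24 for Asah1, 0.10 for Arsa and 0.09 for Neu1. The second probes stood at 0.40 ± 0.29 for Asah1, 0.26 ± 0.26 for Neu1 and 0.09 ± 0.05 for Arsa.

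Genes of the same pathway outside the set ranged more widely around a lower median. Of 83 further lysosomal genes 72 were tested, and their median over arrays was 0.08 ± 0.05, but 5 of them (Cd68, Slc11a1, Dnase2, Grn and Tcirg1) had means above that of Cd63, the highest member. Positive means were found for 51 of 72 after loess (56.5% of all tested genes) and 30 with median centring (32.8%). None passed an adjusted p of 0.05 in limma. At an unadjusted p under 0.05, 17 of 72 were higher and 1 was lower in kaolin, against 12.3% and 6.6% of all tested genes. With median centring 6 were higher and 17 lower, against 5.85% and 25%. Among 17 further hydrolases and soluble factors 15 were positive (11 with median centring), with a median of 0.25 ± 0.23. Dnase2, a nuclease that digests DNA of engulfed cells, was the highest at 0.86 ± 0.76, with Grn, the progranulin precursor, at 0.84 ± 0.86, and Arsg (-0.16 ± 0.21) and Scpep1 (-0.01 ± 0.13) were the lowest. Of 14 further membrane proteins 9 were positive (6 with median centring). Cd68 (1.27 ± 1.26), a macrophage sialomucin, and Slc11a1 (1.14 ± 0.94), a metal ion transporter of phagosomes, led that list, and Slc17a5 and Tpcn2 were the lowest, both at -0.08.

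Genes that deliver enzymes to lysosomes had small means. In that list 11 of 15 were positive after loess and 8 with median centring, and its array medians ran from 0.08 to 0.14. Sort1 (0.36 ± 0.23) and M6pr (0.33 ± 0.20), which are sorting receptors for lysosomal proteins, were positive on 5 of 5 arrays. Gga3, an adaptor for these receptors, was at -0.13 ± 0.22 and Igf2r, the larger mannose 6-phosphate receptor, at -0.06 ± 0.30. Of 9 tested regulators 6 were positive (4 with median centring), with Rragc (0.36 ± 0.20) and Lamtor1 (0.30 ± 0.26) the highest and Rragd (-0.09 ± 0.18) and Tfeb (-0.04 ± 0.17) the lowest. Of 17 further proton pump subunits 10 were positive after loess but 1 with median centring, with a median of 0.03 ± 0.08. Tcirg1 (0.79 ± 0.70) and Atp6v1c1 (0.24 ± 0.33) were the highest, and Atp6v0a1 (-0.32 ± 0.32) and Atp6v0c (-0.13 ± 0.15) the lowest.

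The direction of 8 members, with loess means of 0.23 or lower, depended on the within-array normalization. Replacing loess by median centring moved the median of all tested genes from 0.03 to -0.09 and the median of the member means from 0.29 to 0.09. Relative to all tested genes, the members stood 0.27 higher with loess and 0.19 higher with median centring, and 27 and 25 of 30 members lay above the median of all genes. The 9 members with means of at least 0.5 after loess kept positive means, from 0.34 for Npc2 and Lamp2 to 0.51 for Gusb. They were picked by their loess means, so the kept sign is no separate support. The 8 members that turned negative were Arsa, Atp6v0d1, Gaa, Lamp1, Laptm4a, Psap, Scarb2 and Smpd1. Gla, Manba and Gm2a had lower loess means than Lamp1, Psap and Smpd1 but stayed positive. Their probes were dimmer, at 7.78, 7.83 and 8.34 against 13.50, 14.97 and 13.96, but Arsa (9.09) and Scarb2 (9.38) also turned. The members were brighter on average than all tested genes. The comparisons with all tested genes, here and above, were not matched for brightness.

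**Figure D4:**
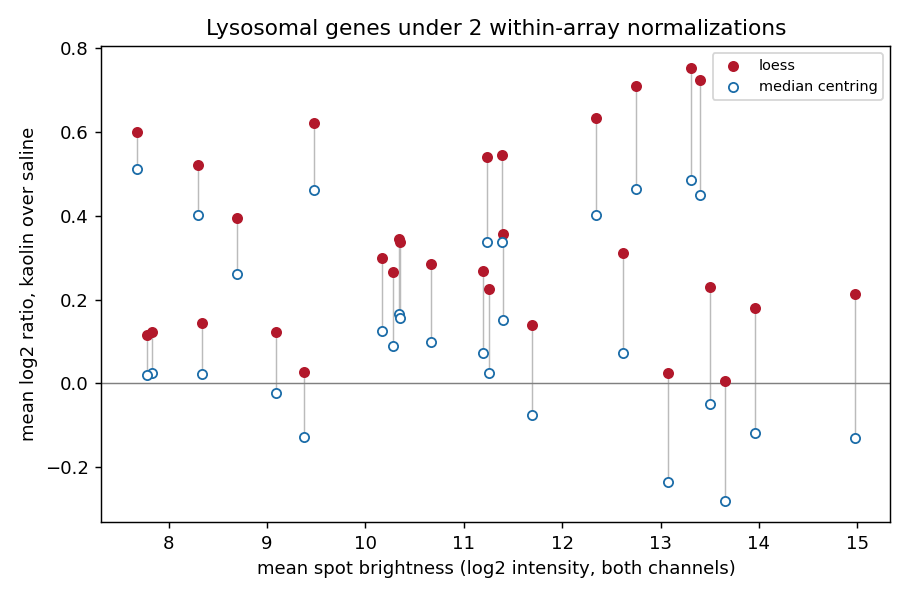
Mean log2 ratio of kaolin over saline (n = 5 arrays) for each of the 30 lysosomal genes against the mean brightness of its probe (log2 intensity over both channels), after loess (filled) and after median centring (open), with a grey line joining the values of a gene. Every open point lies below its filled point, and 8 of them, among them Laptm4a at -0.28 and Atp6v0d1 at -0.24, lie below 0.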

How the data were processed

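The members, role groups, further lysosomal genes and markers were chosen with earlier results of these data known. Each of the 5 arrays has a scanner file from Agilent Feature Extraction 10.1.1.1, on a design annotated to rn4, per the file headers. The deposited file gives each channel's mean spot intensity and local background intensity as scanned, and a processed intensity that is background-subtracted and dye-normalized. Its log ratio is, per the file headers, a log10 of Cy5 over Cy3. The deposited value table was read as log2 of Cy3 over Cy5. Its columns correlated with the log10 ratios at -1.00 to -0.978, which gives the sign. Its member means matched those ratios turned to log2 of Cy3 over Cy5, which gives the base (Acp2 0.338 and Gusb 0.898 in both). The median over members was 0.311 ± 0.259 in both, so no centring beyond the software's own was seen in the member values. Its column medians were 0.02, -0.05, -0.02, 0.09 and -0.10.

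Outlier spots (86 to 147 per array) were left out and no spot was saturated. Signals were corrected with normexp (offset 50), normalized by loess within each array and averaged per probe. A probe was tested where either channel stood well above background on 3 or more arrays (29113 of 41012 probes). The test was the moderated intercept against 0 (limma 3.58.1, R 4.3.3), two-sided, with Benjamini-Hochberg adjustment over these probes. The array is the pairing unit. The script was tested on simulated data. Replicate 5 came from a different slide than the others. Channel levels used quantile normalization of average intensities between arrays. A gene is its brightest probe. Probe symbols came from RefSeq by accession (10768), symbol (5060) or older symbol (3398), and 21786 kept the file's name. All members are named, and those with the highest or lowest mean of a role group, or a mean of at least 0.5 in size, have every array's value. There were 18 alternatives. The number of arrays limits the precision.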

Additional observations from a re-analysis of the deposited data

How the results depend on the processing

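No result here can separate dye from treatment, since kaolin carried Cy3 and saline Cy5 on every array. The spread between arrays was as wide as the mean for many members. Of 540 member values under the 18 alternatives, 510 kept their direction and their side of the threshold, 13 came to pass it and 17 reversed. The filters on dim probes and the setting without a replicate block used the same ratios, so their member means could not change. The authors' series matrix repeated the software's log ratios (median over members 0.311 in both), so the 510 are not independent checks. The count of members with an adjusted p under 0.05 was 0 in the main setting, 10 with array weights (Acp2, Acp5, Arsb, Cd63, Fuca1, Glb1, Gusb, Lamp2, Lgmn and Ppt1) and 0 to 3 over the settings that leave out a replicate, with 3 only without replicate 2. The count with a positive mean was 22 with median centring and 28 to 30 on leaving out a replicate. The median over members was 0.09 with median centring and 0.23 to 0.37 on leaving out a replicate. With the slide as a block it was 0.34, and within the slide of replicates 1 to 4, which is the setting without replicate 5, it was 0.26; the other slide held 1 array. Without the pairing of channels on an array (no replicate block), 0 members passed. Its means are the same differences as in the main setting, so the 30 positive means and the median of 0.29 were fixed in advance. The count of further lysosomal genes with a positive mean was 30 with median centring and 51 to 57 of 72 on leaving out a replicate. Median centring took Arsa to -0.023, Atp6v0d1 to -0.24, Gaa to -0.075, Lamp1 to -0.049, Laptm4a to -0.28, Psap to -0.13, Scarb2 to -0.13 and Smpd1 to -0.12; the all-gene median moved too. Laptm4a was at -0.0085 with the processed signals and at -0.020 with the software's log ratios and with the authors' series matrix. On leaving out a replicate, Atp6v0d1 ran from -0.0076 to 0.052, Laptm4a from -0.035 to 0.048 and Scarb2 from -0.059 to 0.16. The mean of 13 of 30 members moved by over 1.5 times on leaving out some replicate. Besides those 3 they were Gaa (0.22 without replicate 1, 0.09 without replicate 5), Gla (0.05 without replicate 1, 0.20 without replicate 2, 0.04 without replicate 4), Mcoln1 (0.16 without replicate 4, 0.43 without replicate 5), Gm2a (0.09), Hexa (0.19) and Laptm5 (0.47) without replicate 3, Psap (0.14) and Smpd1 (0.12) without replicate 4, and Lamp1 (0.36) and Tpp1 (0.46) without replicate 1. The causes were not tested. A stricter filter on dim probes kept the 30 members, since all were above background in both channels on all 5 arrays, and no filter added Galns.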

Other observations

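The alternative a subunits of the proton pump did not share a sign. Tcirg1, the a3 subunit gene known from osteoclasts and phagocytes, had log2 ratios of -0.02, 0.15, 1.52, 0.94 and 1.38 on replicates 1 to 5. Atp6v0a1, the a1 subunit gene known from neurons and synaptic vesicles, had -0.64, 0.11, -0.65, -0.27 and -0.15. Atp6v0a2, the a2 subunit gene, had 0.03, 0.24, -0.02, 0.25 and -0.05. The means were 0.79 ± 0.70, -0.32 ± 0.32 and 0.09 ± 0.15, and with median centring 0.61, -0.49 and -0.0025, so the sign of Atp6v0a2 depends on the normalization. The difference between these genes was not tested, and they were set side by side after their values were seen. Among the further hydrolases, Dnase2 (0.21, -0.04, 1.66, 1.02 and 1.48) and Grn (-0.22, 0.15, 1.63, 0.94 and 1.68) were lowest on replicates 1 and 2.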
